A study of Mus musculus with 8 samples.

Results

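The genes described are Spib and 8 further transcription factors of the ETS family that intestinal epithelium expresses: Elf1, Elf2, Elf3, Elf4, Ehf, Ets2, Etv6 and Gabpa. They were taken by name from a gene count table of mouse small intestinal organoids and are 9 of the 54532 genes listed there. Expression was measured in 4 control and 4 RANKL-treated libraries by QuantSeq, which sequences the 3′ end of polyadenylated RNA. Intestinal organoids are epithelial structures grown from crypts, and their culture holds no immune or connective tissue by design. RANKL (TNFSF11) is the ligand of RANK, a receptor of the tumour necrosis factor family that activates NF-κB, and the comparison asked which genes its addition changes. The libraries carry no other label of strain, allele, age, sex, dose or time, so control and RANKL treatment are the only groups, and nothing says whether the 4 libraries of a group came from separate mice or cultures. The p-values then measure only the spread between these libraries, which may be technical.

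ETS factors share a DNA-binding domain that reads a GGAA core, and members differ in the bases they prefer around it, in their partners and in whether they activate or repress. Spi-B, the product of Spib, belongs to the same branch as PU.1 and is known from B cells and plasmacytoid dendritic cells. In the intestine it is required for the maturation of M cells, the antigen-sampling cells of the epithelium over lymphoid follicles, whose differentiation is started by RANKL. Elf3 and Ehf form an epithelial branch, Elf1, Elf2 and Elf4 a branch that is widely expressed and prominent in lymphocytes, Ets2 is a nuclear target of the RAS and MAP kinase pathway, Etv6 is a repressor, and Gabpa is the DNA-binding subunit of GABP, which drives many genes of mitochondrial respiration.

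The promoters of Spib and Elf3 are shown because they were the only ones among the factors with an entry that held a sequence match to the NF-κB consensus, while the genes moved in opposite directions. Each line gives the 250 bases before the annotated start from RefSeq (GRCm38.p6), read 5′ to 3′ on the strand of the gene, with matches to GGAA or its complement TTCC and to the NF-κB consensus in capitals.
Spib, chr7:44532072-44532321, minus strand: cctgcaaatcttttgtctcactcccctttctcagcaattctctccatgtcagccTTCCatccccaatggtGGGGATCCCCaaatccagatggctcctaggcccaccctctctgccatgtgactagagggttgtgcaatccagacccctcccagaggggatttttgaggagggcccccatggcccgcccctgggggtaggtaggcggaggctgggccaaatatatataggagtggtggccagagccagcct
Elf3, chr1:135258473-135258722, minus strand: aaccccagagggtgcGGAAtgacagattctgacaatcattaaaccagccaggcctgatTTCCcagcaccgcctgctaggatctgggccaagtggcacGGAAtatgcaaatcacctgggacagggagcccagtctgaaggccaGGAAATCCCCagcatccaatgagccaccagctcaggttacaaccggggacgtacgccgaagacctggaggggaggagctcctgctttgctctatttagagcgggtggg

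The Spib match, GGGGATCCCC, reads the same on both strands and lay 180 to 171 bases before the start. The Elf3 match, GGAAATCCCC, lay 108 to 99 bases before the start on the other strand and holds a GGAA core itself. Both strands were searched, 11 promoters of 8 of the factors had an entry (Ehf had none), and 3.9% of 32851 mouse promoters of the same length held the NF-κB consensus. The GGAA core was in 10 of the 11 promoters and in 93.4% of all promoters, a similar share. The longer ETS letters CCGGAAGT were in none of the 11 and in 2.88% of all, and the letters GAGGAA, favoured by the Spi branch, were in 3 promoters, of Elf4 and Gabpa, and in 23.3% of all. A match is a run of letters and not a measured binding site.

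Spib (chromosome 7, 44525993 to 44532071, minus strand) went from the lowest of the 9 factors to the highest. Its level in the control libraries was 4.58, 5.37, 2.28 and 5.16 CPM (counts scaled to library size with TMM factors), against 1489, 1654, 1760 and 1527 CPM after RANKL treatment. The lowest RANKL library was 277-fold above the highest control library, so the groups lay far apart. The means were 4.35 ± 1.42 and 1607 ± 123.9 CPM (SD, n = 4 each), a ratio of 370. The fitted log2 fold change was 8.56 with a standard error (SE) of 0.16 and an adjusted p of 4.8e-27 (edgeR's quasi-likelihood test, Benjamini-Hochberg adjustment over 9971 genes tested). The gene entered the test only through its RANKL libraries, since none of its control libraries reached the limit on low counts. The control level rested on 68 counts over 4 libraries against 9481 in the RANKL libraries, and was above the 3 counts that a value of 0 would allow in every control library but the shallowest, which held 3. By level over all listed genes, Spib moved from rank 10258 without RANKL to rank 40 with it. In bulk libraries, more cells of a type and more RNA per cell cannot be told apart.

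**Figure D1:**
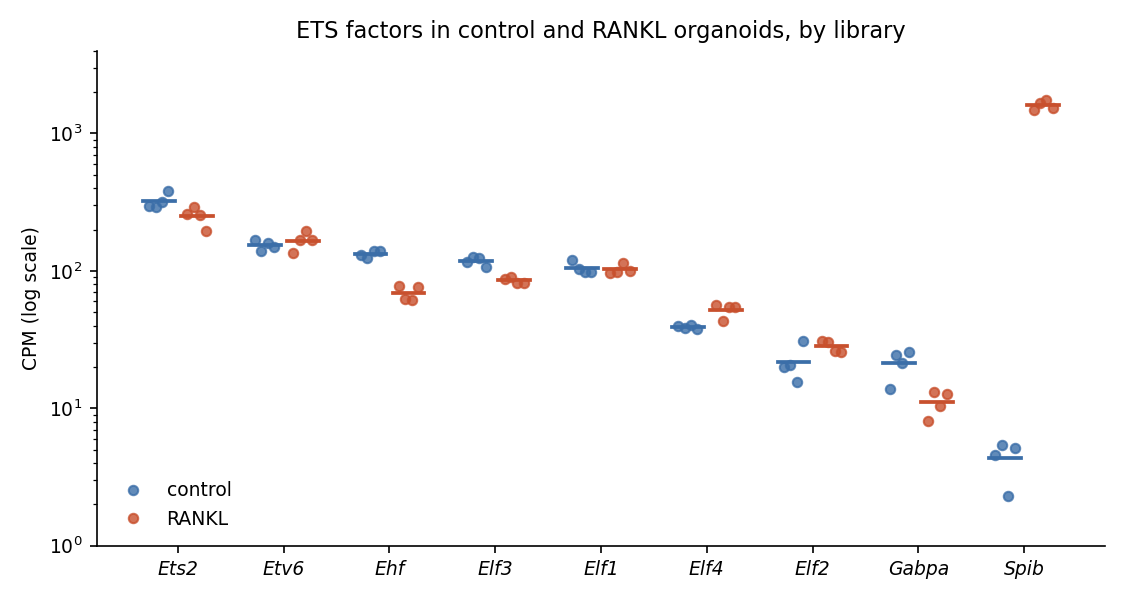
Level of each of the 9 ETS factors in CPM (log scale) in the 4 control and 4 RANKL-treated libraries, 1 point per library with the group mean. Spib stood at 2.28 to 5.37 CPM without RANKL and at 1489 to 1760 CPM with it, while the means of the other factors differed by less than a factor of 2.

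Among the 9930 genes tested at a mean of at least 5 CPM, the fitted rise of Spib was the 3rd largest, after Vcam1 and Icam1. Those 2 genes had 0 counts in the control libraries, so that their fitted values of 9.45 and 9.30 depend on the prior count and are no bounds. In the plot of fold change against level, Spib stood alone at its height and level.

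**Figure D2:**
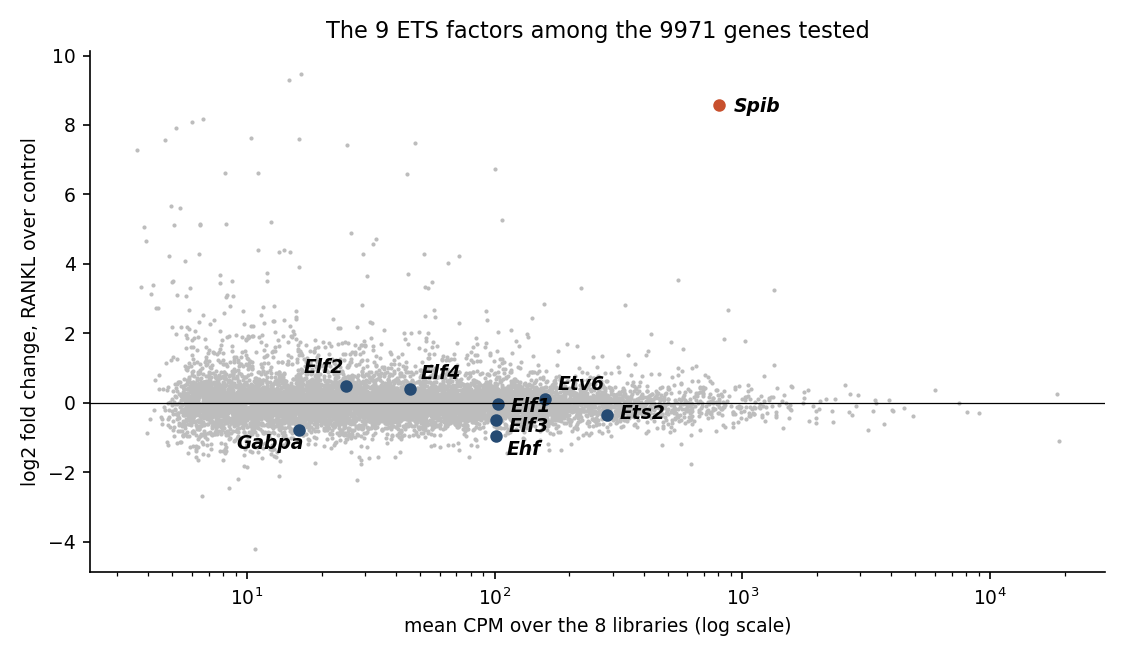
Fitted log2 fold change of RANKL over control against mean CPM over the 8 libraries (log scale) for the genes tested, grey, with the 9 ETS factors marked. Spib lies at 8.56 while the other 8 factors lie between -0.95 and 0.48, within the cloud of genes of similar level.

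The means of the 8 other factors differed by less than a factor of 2. Of the 9 factors, 2 rose (Spib and Elf4), 4 fell (Ehf, Elf3, Ets2 and Gabpa) and 3 did not pass the test (Elf1, Elf2 and Etv6). Over all genes tested, 25.9% passed, 13.6% as higher and 12.4% as lower. The median log2 fold change of the 9 factors was -0.04, beside 0.00 over all genes tested. The libraries of the 2 groups did not overlap for the same 6 factors, against 24.6% of all genes tested, and each of these had an exact two-sided permutation p of 0.0286 (unadjusted), the smallest that 4 against 4 libraries allow.

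Ehf, an epithelial ETS factor (chromosome 2, 103263433 to 103303278, minus strand), had the largest fall. Its control libraries held 129.5, 124.2, 139.6 and 139.3 CPM and its RANKL libraries 77.5, 61.9, 61.0 and 76.9 CPM. The highest RANKL library was well below the lowest control library. The means were 133.2 ± 7.59 and 69.3 ± 9.08 CPM (SD, n = 4 each), with a log2 fold change of -0.95 (SE 0.12, adjusted p = 2.9e-07, edgeR's quasi-likelihood test). Among the 9930 genes this was the fall of rank 159.

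Elf3 (chromosome 1, 135253575 to 135258568, minus strand), the relative of Ehf that intestinal epithelium needs for the differentiation of its absorptive and goblet cells, fell less. The control libraries held 115.1, 125.9, 123.9 and 106.6 CPM and the RANKL libraries 87.2, 90.2, 81.4 and 81.8 CPM, without overlap. The means were 117.9 ± 8.84 and 85.1 ± 4.27 CPM (SD, n = 4 each), and the log2 fold change was -0.49 (SE 0.11, adjusted p = 0.0013). Elf5, which belongs to the same branch, was at 0 counts in all 8 libraries. Leaving out any single library did not end the calls of Spib, Ehf or Elf3, and a fold of at least 2 was reached by Spib alone.

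Ets2 (chromosome 16, 95702075 to 95721051, plus strand), whose protein is activated by MAP kinase phosphorylation, had the highest level of the 9 factors in the control. Its control libraries held 295.0, 293.0, 316.8 and 380.1 CPM and its RANKL libraries 258.3, 291.8, 255.0 and 193.9 CPM. The groups were separated by little, since RANKL replicate 2 lay just under control replicate 2. The log2 fold change was -0.35 (SE 0.11, adjusted p = 0.024), with means of 321.2 ± 40.7 and 249.8 ± 40.8 CPM (SD, n = 4 each). The call rested on the extreme library of each group: it was -0.28 (adjusted p = 0.081) without control replicate 4 and -0.23 (adjusted p = 0.16) without RANKL replicate 4.

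Gabpa (chromosome 16, 84834925 to 84863779, plus strand) was the least abundant of the factors that fell. Control levels were 13.8, 24.4, 21.3 and 25.8 CPM and RANKL levels 8.07, 13.1, 10.4 and 12.6 CPM. Control replicate 1, the deepest library, lay just above the highest RANKL library. The means were 21.3 ± 5.38 and 11.1 ± 2.3 CPM (SD, n = 4 each), the fitted log2 fold change was -0.79 (SE 0.24, adjusted p = 0.016), and the RANKL level rested on 67 counts. Without control replicate 2 it was -0.66 (adjusted p = 0.065) and without RANKL replicate 3 it was -0.73 (adjusted p = 0.058), so that leaving out either of these 2 libraries ended the call.

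Elf4 (chromosome X, 48411046 to 48463132, minus strand), known from T cells and innate antiviral responses, was the only factor besides Spib to pass the test as higher. Its levels were 40.0, 38.6, 40.3 and 37.8 CPM in the control and 56.5, 43.4, 54.2 and 54.4 CPM with RANKL. The control libraries lay close together and RANKL replicate 2 just above them. The log2 fold change was 0.39 (SE 0.14, adjusted p = 0.038), with means of 39.2 ± 1.15 and 52.1 ± 5.93 CPM (SD, n = 4 each). Leaving out control replicate 1 (0.06), control replicate 2 (0.081), RANKL replicate 1 (0.078), RANKL replicate 3 (0.11) or RANKL replicate 4 (0.12) put the adjusted p above the threshold, at log2 fold changes of 0.36 to 0.40.

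Elf2, Etv6 and Elf1 did not pass the test. Elf2 (chromosome 3, 51252720 to 51340663, minus strand) had 20.1, 20.7, 15.5 and 31.0 CPM in the control and 30.7, 30.3, 26.1 and 25.8 CPM with RANKL, with a log2 fold change of 0.48 (SE 0.19, adjusted p = 0.06). Control replicate 4, a shallow library of 583663 counts, was the only control library above any RANKL library, and without it Elf2 had a log2 fold change of 0.56 (adjusted p = 0.025). Etv6 (chromosome 6, 134035700 to 134270158, plus strand) ran from 139.8 to 168.2 CPM in the control and from 134.0 to 194.5 CPM with RANKL, with a log2 fold change of 0.12 (SE 0.11, adjusted p = 0.48). Elf1 (chromosome 14, 79481194 to 79582494, plus strand) ran from 97.8 to 119.4 CPM and from 96.9 to 114.7 CPM. Its log2 fold change was -0.04 (SE 0.12, adjusted p = 0.84), which turned to 0.04 without control replicate 1. The groups overlapped for these 3 factors, with exact permutation p of 0.143 for Elf2, 0.457 for Etv6 and 0.571 for Elf1 (two-sided, unadjusted).

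**Figure D3:**
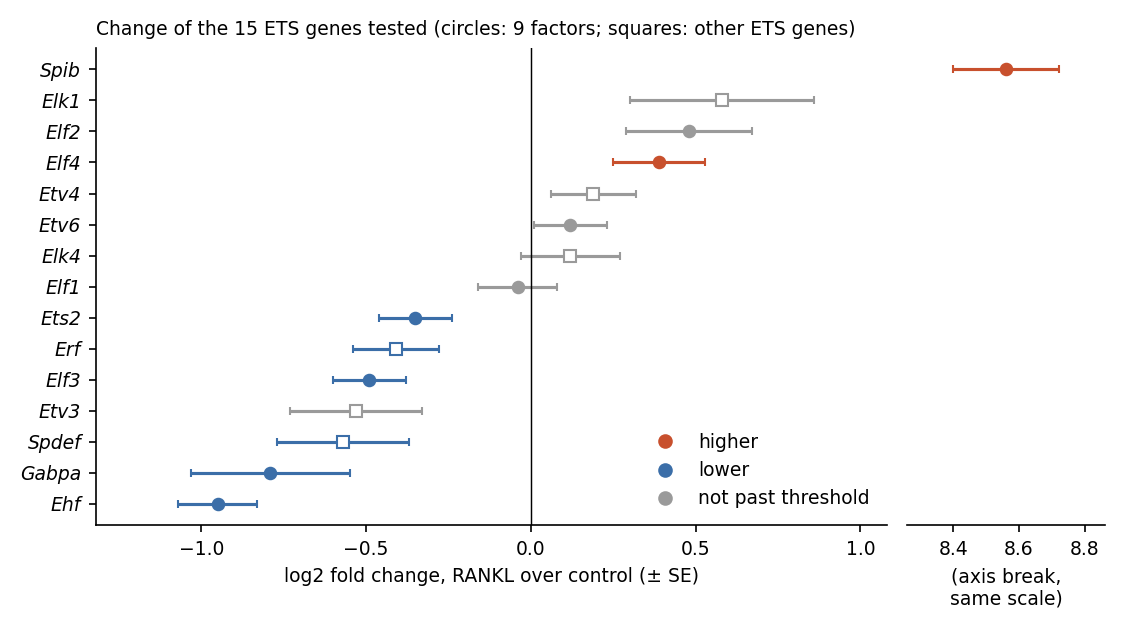
Fitted log2 fold change of RANKL over control with its SE for the 15 ETS genes tested, the 9 factors as circles and other family genes as squares, coloured by the edgeR call, with a break in the axis before Spib. Spib lies at 8.56, and the genes past the threshold otherwise lie between -0.95 (Ehf) and 0.39 (Elf4).

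QuantSeq counts 1 fragment per transcript 3′ end and so does not scale with transcript length, which allows levels to be set side by side between genes on the CPM scale, as far as the efficiency of priming is alike. In the control the order of levels was Ets2, Etv6, Ehf, Elf3, Elf1, Elf4, Elf2, Gabpa and Spib. Neighbours whose libraries overlapped were Ehf with Elf3, Elf3 with Elf1, and Elf2 with Gabpa. In the RANKL group the order was Spib, Ets2, Etv6, Elf1, Elf3, Ehf, Elf4, Elf2 and Gabpa, and only Ets2 and Etv6 overlapped. Ehf thus went from a place above Elf3 and Elf1 to a place below both.

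The transcripts of all 26 ETS genes were next taken as one pool, and the share of each factor was computed from the counts within each library. Spib made up 0.338% ± 0.115 of this pool in libraries of control organoids and 59.3% ± 1.07 in those of RANKL-treated organoids (SD, n = 4 each), with ranges of 0.173% to 0.436% and of 58.0% to 60.4%. In RANKL replicate 1, the shallowest of its group, the exact (Clopper-Pearson) 95% binomial interval was 55.5% to 60.4%, which covers counting error only. Ets2 held the largest share in the control, 24.8% ± 2.61, and 9.2% ± 1.27 with RANKL. The share of Etv6 went from 11.9% ± 0.797 to 6.1% ± 0.658, that of Ehf from 10.3% ± 0.3 to 2.59% ± 0.514 and that of Elf3 from 9.15% ± 0.922 to 3.15% ± 0.268. A share falls when another gene rises, so the pool describes the makeup and not the change of each gene. The summed level of the pool went from 1291 ± 43.1 to 2710 ± 194.3 CPM, and without Spib from 1287 ± 43.7 to 1102 ± 78.3 CPM (SD, n = 4 each). The summed level of the 8 factors without Spib was 870.0 to 968.2 CPM without RANKL and 711.8 to 797.4 CPM with it, without overlap.

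**Figure D4:**
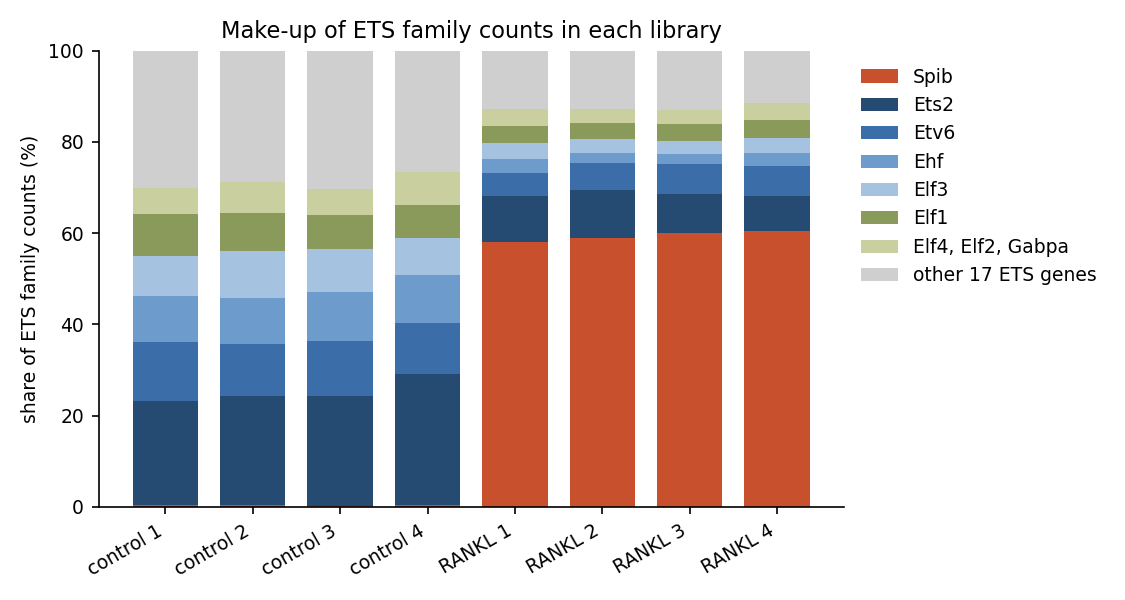
Share of each ETS factor in the counts of all 26 ETS family genes, in percent, for each control and RANKL-treated library. Spib fills 58.0% to 60.4% of each RANKL library and at most 0.436% of each control library.

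Of the other 17 ETS family genes, 6 were abundant enough to test. None passed as higher and 2 passed as lower, beside 13.6% higher and 12.4% lower over all genes tested. At an unadjusted p under 0.05, 1 was higher by edgeR, 0 by DESeq2 and 1 by limma-voom, and after adjustment both other tools called 0 higher. The median log2 fold change of the 6 was -0.14, beside 0.00 over all genes tested. Erf, a repressor that ERK phosphorylation moves out of the nucleus, measured 160.8 ± 29.4 CPM without and 123.4 ± 25.3 CPM with RANKL (SD, n = 4 each), with overlapping libraries (log2 fold change -0.41, SE 0.13, adjusted p = 0.023). Spdef, which drives the maturation of goblet and Paneth cells, measured 24.0 ± 3.9 CPM without and 17.1 ± 3.19 CPM with RANKL (log2 fold change -0.57, SE 0.20, adjusted p = 0.031). Both calls rested on single libraries: leaving out control replicate 1, RANKL replicate 1 or RANKL replicate 4 ended that of Erf (log2 fold change of -0.52 to -0.29 over all libraries left out in turn, adjusted p up to 0.15), and leaving out control replicate 3, RANKL replicate 2 or RANKL replicate 4 ended that of Spdef (-0.71 to -0.48, up to 0.14). Without RANKL replicate 4 the count of other ETS genes called was 0, and without control replicate 3, RANKL replicate 1 or RANKL replicate 2 it was 1. Etv4, a target and effector of FGF and ERK signalling and with Erf the most abundant of these genes, had 100.2 ± 17.2 and 110.3 ± 12.7 CPM and a log2 fold change of 0.19 (SE 0.13, adjusted p = 0.28). The haematopoietic and endothelial members Erg and Fli1 were at 0 counts in every library, and Spi1 and Spic, the closest relatives of Spib, had 1 count each over all 8 libraries. Of the Spi branch, Spib alone thus had enough counts to test, at depths where a count of 0 allows 0.384 to 5.14 CPM.

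Most of the listed inputs of the pathway that starts M cell differentiation were higher after RANKL treatment, as Spib was. A list of 9 genes held RANK, its NF-κB arm and Esrrg, and all 9 were tested (median log2 fold change of 1.10, beside 0.00 over all genes tested). Of the 9, 7 rose and none fell, beside 13.6% higher and 12.4% lower over all genes tested. Tnfrsf11a, which encodes RANK, went from 28.4, 23.1, 36.2 and 36.1 CPM to 148.5, 172.1, 152.8 and 148.8 CPM, a log2 fold change of 2.39 (SE 0.14, adjusted p = 7.2e-15). Both subunits of the alternative NF-κB dimer were among the genes that rose. Relb had 39.8 ± 2.7 and 407.3 ± 40.7 CPM (SD, n = 4 each; log2 fold change 3.32, SE 0.11, adjusted p = 2.2e-20), and Nfkb2 had 8.68 ± 3.17 and 102.7 ± 18.9 CPM (3.48, SE 0.18, adjusted p = 6.5e-16). Map3k14, the kinase NIK that activates this dimer, had 10.4 ± 5.59 and 40.7 ± 6.52 CPM (1.73, SE 0.21, adjusted p = 1.8e-07). Nfkb2 and Map3k14 entered the test only through their RANKL libraries, where they are high, and the other 5 that rose could have entered through either group. Traf6, the adaptor of RANK, and Esrrg, a nuclear receptor of the M cell programme, did not pass the test, with log2 fold changes of 0.20 (adjusted p = 0.68) and -0.07 (adjusted p = 0.87).

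Genes of the M cell programme were examined next, since Spib is its best known regulator. Of 16 genes, 12 were tested and the 12 were higher (median log2 fold change of 2.89), beside 13.6% higher over all genes tested. However, 8 of these entered the test only through their RANKL libraries, the group where they are high, so the count is an account of the list and no measure of it. The 4 that could have entered through either group were Ccl9, Anxa5, Pglyrp1 and Ctsh, named for this reason after their values were seen, with log2 fold changes of 1.29, 3.31, 1.65 and 1.62. The 4 with the largest changes at a mean of at least 5 CPM all entered through RANKL alone. Among them, Sox8 held 3 control counts and Rac2 4, so their fitted values depend in part on the prior count and their SE is too small. Sox8, the transcription factor that acts beside Spi-B, had 0.255, 0.268, 0 and 0 CPM without RANKL and 6.46, 11.7, 11.0 and 13.2 CPM with it (log2 fold change 5.61, SE 0.49, adjusted p = 2.0e-10). Marcksl1 went from 6.87 ± 1.88 to 82.6 ± 8.62 CPM (3.71, SE 0.18, adjusted p = 1.9e-16), Tnfaip2 from 2.73 ± 1.25 to 63.4 ± 14.9 CPM (4.72, SE 0.26, adjusted p = 4.0e-15) and Rac2 from 0.163 ± 0.193 to 9.94 ± 1.9 CPM (5.13, SE 0.48, adjusted p = 9.4e-10). By contrast, Gp2, the uptake receptor that marks mature M cells, was at 0 counts in all 8 libraries, and Psg18 had 1 count in all. Tnfrsf11b, the soluble decoy receptor of RANKL, went from 0 counts to 39, which is at least 36.6-fold higher when the control group as a whole is set to the 3 counts that 0 allows, and was too low to be tested. Gp2, Psg18 and Tnfrsf11b were singled out after their values were seen.

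**Figure D5:**
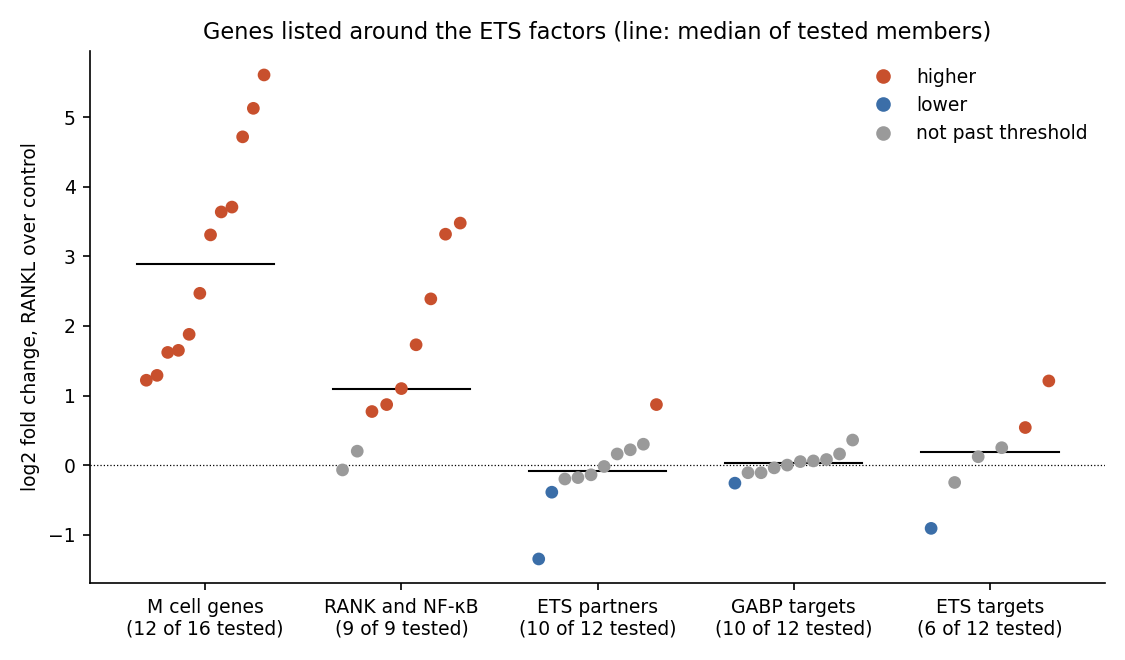
Fitted log2 fold change of RANKL over control for each tested gene of the lists around the ETS factors, 1 point per gene, coloured by the edgeR call. The M cell and RANK input lists have medians of 2.89 and 1.10, whereas the GABP target list has a median of 0.02.

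Partners and cofactors of the factors formed a list of 12 genes, of which 10 were tested, 1 rose and 2 fell (median log2 fold change of -0.08). This is close to the share of all genes tested, of which 13.6% passed as higher and 12.4% as lower. Irf8, which binds composite DNA elements together with PU.1 or Spi-B, fell while Spib rose: it had 92.3, 108.9, 102.9 and 106.6 CPM without RANKL and 46.8, 42.7, 34.4 and 39.5 CPM with it (log2 fold change -1.35, SE 0.13, adjusted p = 1.9e-09). Irf4, the alternative partner, had 1 count over all libraries. Ncor1, a corepressor recruited by Etv6, had 517.7 ± 22.5 and 395.7 ± 11.7 CPM (log2 fold change -0.39, adjusted p = 0.0017). Of the subunits that pair with Gabpa, which fell, Gabpb1 rose and Gabpb2 did not pass the test. Gabpb1 entered the test only through its RANKL libraries, where it is high. It had 8.40, 5.90, 4.31 and 5.16 CPM without RANKL and 11.3, 11.7, 9.39 and 14.3 CPM with it (log2 fold change 0.87, SE 0.28, adjusted p = 0.022), a call that was lost without control replicate 3, RANKL replicate 2 or RANKL replicate 4 (log2 fold change of 0.69 to 1.19 over all libraries left out in turn, adjusted p up to 0.13). Gabpb2 had 65.3 ± 5.84 and 65.8 ± 14.9 CPM (log2 fold change -0.02, SE 0.14, adjusted p = 0.93), a difference whose sign changed with the normalization.

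Of 12 nuclear genes for mitochondrial respiration and transcription that GABP is known to drive, 10 were tested, with a median log2 fold change of 0.02. None of the 10 rose and 1 fell, beside 13.6% higher and 12.4% lower over all genes tested. At an unadjusted p under 0.05, edgeR, DESeq2 and limma-voom each had 0 higher and 1 lower. The gene that fell was Cox6c, a subunit of cytochrome c oxidase, with 1490 ± 154.7 and 1247 ± 55.4 CPM (SD, n = 4 each; log2 fold change -0.26, SE 0.09, adjusted p = 0.04). Leaving out control replicate 1 or any 1 of the RANKL libraries ended this call, at -0.30 to -0.19 over all libraries left out in turn and an adjusted p of up to 0.16. Without any 1 of the RANKL libraries the list held 0 calls, and without control replicate 1 its single call was a rise. That gene was Sdhd, a subunit of succinate dehydrogenase, named after its values were seen. It had 55.0 CPM in control replicate 1 and 8.11 to 11.0 CPM in the other control libraries, against 22.6 to 31.9 CPM with RANKL. Its log2 fold change was 0.16 (adjusted p = 0.80) over all libraries and 1.56 (adjusted p = 2.4e-06) without control replicate 1. Gabpa itself had a fitted log2 fold change of -0.79, a call lost with limma-voom and without control replicate 2 or RANKL replicate 3. The median of the 10 genes tested was 0.02, and whether GABP activity changed was not tested.

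Of 12 genes described as targets of ETS factors such as Ets2, 6 were tested (median log2 fold change of 0.19). Of the 6, 2 rose and 1 fell, beside 13.6% higher and 12.4% lower over all genes tested. Junb, an AP-1 subunit, had 51.0 ± 5.3 CPM without and 118.7 ± 12.5 CPM with RANKL (SD, n = 4 each; log2 fold change 1.21, SE 0.12, adjusted p = 5.6e-09), and Bcl2l1, an inhibitor of apoptosis, 76.5 ± 14.6 and 114.3 ± 5.66 CPM (0.54, SE 0.12, adjusted p = 0.0013). Myc, which entered the test only through its control libraries, where it is high, had 10.5 ± 3.35 and 5.15 ± 1.26 CPM (-0.91, SE 0.31, adjusted p = 0.029), a call lost without control replicate 1 or without RANKL replicate 2, 3 or 4 (-0.97 to -0.77 over all libraries left out in turn, adjusted p up to 0.12). The proteases Mmp3, Mmp9, Mmp13 and Plau, known as ETS targets in stroma and tumours, were at 0 counts in all libraries.

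The genes whose pattern over the 8 libraries was most like that of Spib, by Pearson's r of log2(CPM + 1) among 9930 genes, were Id2 (r = 0.9987), Reg3g (0.9985), Nfkbia (0.9985), Nectin2 (0.9983) and Il4i1 (0.9969). Since the libraries form 2 groups that lie far apart for Spib, r measures mainly how cleanly a gene separates them with little spread, and it is given as a description. Their log2 fold changes ran from 1.37 for Nectin2 to 7.60 for Il4i1. The control level of Il4i1 was 0.0989 ± 0.128 CPM, so its fitted value depends in part on the prior count. For Elf3 the most similar genes were Cldn15 (0.9906), Zbtb38 (0.9755) and Krt18 (0.9750). Cldn15, a claudin that forms sodium channels in intestinal tight junctions, had 565.2 ± 52.4 and 387.5 ± 29.7 CPM (log2 fold change -0.56, SE 0.10, adjusted p = 5.2e-05), close to the -0.49 of Elf3. For Ets2 they included Iyd (0.9823) and Gm49336 (0.9820), neither of which passed the test (adjusted p = 0.25 and 0.093).

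Library totals ran from 583663 to 7807298 counts, with medians of 3911808 for control and 1613410 for RANKL libraries, and control replicate 4 and RANKL replicate 1 were the shallowest. The lower depth of the RANKL group moves with every comparison above, and with depth as a covariate the calls of all factors but Elf4 (0.41, adjusted p = 0.13) were kept. Without these 2 libraries Spib, Ehf and Elf3 passed the test and Elf4 (adjusted p = 0.097), Ets2 (0.11) and Gabpa (0.059) did not. The epithelial identity of the organoids was checked on 8 markers, all of which were tested: 2 fell, Krt18 (638.2 ± 50.8 to 393.6 ± 19.9 CPM, log2 fold change -0.70, SE 0.09, adjusted p = 9.4e-07) and Krt19 (-0.30, adjusted p = 0.023). No marker rose, beside 13.6% higher and 12.4% lower over all genes tested. Krt19 lost its call without control replicate 3 or without RANKL replicate 1, 3 or 4 (adjusted p up to 0.078). The summed level of the 8 markers was 6002 to 6940 CPM without RANKL and 6023 to 6467 CPM with it. Markers of B cells and plasmacytoid dendritic cells, the other cells that express Spib, summed to 0.253 to 1.72 CPM without RANKL and to 0 to 1.04 CPM with it, with 5 of 8 at 0 throughout, among them the B cell genes Cd79a, Ms4a1, Pax5 and Blk. Leukocyte markers summed to 5.37 to 9.63 and to 4.82 to 16.1 CPM, with Cd3e and Tyrobp of 8 at 0 throughout. Csf1r held 93 of their 118 control counts and 30 of their 57 RANKL counts (5.29 ± 2.44 and 4.95 ± 2.42 CPM). Lyz2 and Itgam had means of 0.357 and 0.427 CPM without RANKL and 2.02 and 2.19 CPM with it, with overlapping libraries. Stromal and endothelial markers summed to 1.77 to 6.88 and to 0.688 to 4.84 CPM, with Dcn, Cdh5 and Kdr of 8 at 0 throughout.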

How the data were processed

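RNA of 4 control and 4 RANKL-treated libraries of mouse small intestinal organoids was made into QuantSeq 3′ mRNA libraries and sequenced as single reads of 50 bases. The deposited values are raw counts per gene: the authors trimmed reads with BBDuk, removed abundant sequences with bowtie2, aligned the rest to GRCm38 (mm10) with STAR and counted them strand-specifically on Ensembl release 94 with featureCounts. Groups and replicate numbers came from the sample labels. Of 54532 listed genes, 54495 matched GENCODE M21, from which symbols and coordinates were taken, and the 37 others held 0.00675% of the counts.

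Log2 fold changes came from edgeR 4.0.16 under R 4.3.3, run on these counts (library totals over all genes, TMM factors, its filter on low counts, quasi-likelihood test). P-values were adjusted by the Benjamini-Hochberg method across 9971 tested genes, and 0.05 was the threshold. The study used DESeq2, run here as an alternative (version 1.42.0). Log2 values for the similarity of genes had a pseudocount of 1. CPM are TMM-scaled. SE is the log2 fold change over the square root of F. For large changes it can fall below the error that few control counts carry, as for Sox8, Rac2 and Spib. Exact permutation tests used 70 assignments. The procedure was tested on simulated data.

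The factors and the 10 further lists (other ETS genes, RANK input, M cell, partner, GABP target and ETS target genes, and 4 lists of cell type markers) were chosen with earlier results of these data known. Named from them were all factors; other ETS genes past the threshold and the 2 most abundant; up to 4 genes per list past the threshold with the largest change at a mean of at least 5 CPM; Tnfrsf11a, Gabpb1 and Gabpb2; and the 5 genes most like Spib and 3 most like Elf3 and Ets2, of which 1 is not reported here. Other list members, such as Traf6, Esrrg, Irf4, Csf1r and genes at or near 0 counts, were named outside this rule, after their values were seen. Exons of Elf1, Elf2, Elf3, Etv6 and Gabpa overlap genes of the other strand only, which strand-specific counting separates. Promoters came from RefSeq (GRCm38.p6). Replicates differed by more than sampling noise (chi-square per degree of freedom 1.25 to 15.4 between pairs of a group). Intervals and floors (3 counts for a value of 0) describe the error of counting alone, as duplicates from PCR were not removed. Alternatives were DESeq2 size factors, library totals alone, DESeq2 and limma-voom (limma 3.58.1) tests, other filters on low counts, a replicate block, depth as a covariate, stricter thresholds, another pool denominator, and leaving out each library or both shallow ones.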

Additional observations from a re-analysis of the deposited data

Results flagged for a closer look

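In RANKL replicate 4, Junb stood at 100 CPM, below the next lowest RANKL library at 124.3 CPM, a gap that took up most of the range of its group by Dixon's criterion for 4 samples. It was the only value set apart in this way among 60 groups of 4 values, where chance alone sets apart about 1 in 20. These groups covered only the genes named by the rule above. Other genes were not searched, such as Sdhd, which had 55.0 CPM in control replicate 1 against 8.11 to 11.0 CPM in the other control libraries.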

How the results depend on the processing

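Spib (log2 fold change of 8.35 to 8.70 with each library left out in turn and 8.51 to 8.72 otherwise), Ehf (-1.03 to -0.89 and -1.0 to -0.92) and Elf3 (-0.52 to -0.46 and -0.53 to -0.47) kept their calls under the alternatives that could be run for them, the adjusted p of 0.01 included, except that only Spib reached a fold of at least 2. With at least 10 counts in every library Spib and Gabpa were not tested, and Etv6 was never called. Over the alternatives, 135 of 160 values of the 9 factors stayed on their side of the threshold and kept their direction, 20 lost their call, 3 gained one and 2 changed sign, and of 370 values of 21 other named genes 326 stayed, 40 lost their call and 4 changed sign. The cause of these shifts was not tested beyond what fewer libraries or a stricter threshold bring about. A count of 0 allows 0.384 to 5.14 CPM, so that changes of genes near these levels could not be measured.

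Elf4 lost its call with DESeq2 (0.39), without a filter on low counts (0.35), with depth as a covariate (0.41), without both shallow libraries (0.36) and at an adjusted p of 0.01 (0.39), and ran from 0.36 to 0.47 with each library left out. Ets2 lost it without the shallow libraries (-0.29) and at 0.01 (-0.35), with -0.44 to -0.23 over libraries left out. Gabpa lost it with limma-voom (-0.67), without the shallow libraries (-0.69) and at 0.01 (-0.79), with -1.02 to -0.66 over libraries left out. Elf2 passed with limma-voom (0.52) and with at least 10 counts in every library (0.50), and ran from 0.37 to 0.56 over libraries left out. Elf1 turned to 0.07 with depth as a covariate and ran from -0.11 to 0.04 over libraries left out. Gabpb2 turned to 0.00 (above 0 before rounding) with library totals alone, 0.05 without control replicate 2, 0.09 without RANKL replicate 2 and 0.02 without RANKL replicate 3.

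Genes called over the whole table numbered 1636 at an adjusted p of 0.01 and 577 with a fold of at least 2, against 2587. Of the 9 factors, 3 were called without the shallow libraries, 3 at 0.01 and 1 with a fold of at least 2. Of the other ETS genes, 1 was called with DESeq2, and 0 with depth as a covariate, at 0.01 or with a fold of at least 2 (0 to 3 over libraries left out). The M cell list held 3 calls and the RANK input list 4 with at least 10 counts in every library, where fewer genes were tested. The partner list and the ETS target list each held 1 call with a fold of at least 2. The GABP target list held 0 calls with library totals alone, with at least 10 counts in every library, without the shallow libraries, at 0.01 and with a fold of at least 2 (0 to 1 over libraries left out). With depth as a covariate its 1 call was a rise, of Sdhd (2.14, adjusted p = 0.0058). With the counts of the 9 factors as denominator, the shares in control and RANKL libraries were 0.475% and 67.8% for Spib, 34.9% and 10.5% for Ets2, 16.8% and 6.96% for Etv6, 11.4% and 4.32% for Elf1, and 12.9% and 3.6% for Elf3, with 14.5% for Ehf in the control.

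Same-numbered control and RANKL libraries showed little shared deviation (correlations of -0.00772, -0.0343, 0.104 and 0.0351). Counting noise lowers such values too, so they cannot decide whether the numbers pair the libraries. With the replicate number as a block, 2610 genes were called against 2587, the GABP target list held 2 calls (Cox6c lower and Sdhd higher, 0.75, adjusted p = 0.028), and Elf4 lost its call (0.39, adjusted p = 0.055). Libraries 3 and 4 correlated best with their own number, and libraries 1 and 2 did not.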

Other observations

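The genes around Spib on chromosome 7 were read as a description of its neighbourhood. Within 250 kb of Spib lay 32 other genes, of which 7 were abundant enough to test, 1 rose and 1 fell, while 13.6% of all genes tested rose and 12.4% fell. The gene that rose was Pold1, the catalytic subunit of DNA polymerase delta, which lies 0.675 kb upstream of Spib on the same strand. It had 44.1 ± 3.49 CPM without RANKL and 71.7 ± 8.29 CPM with it (SD, n = 4 each; log2 fold change 0.72, SE 0.13, adjusted p = 0.0001, edgeR's quasi-likelihood test). Mybpc2, 1.34 kb downstream, had 0 control counts and 2 with RANKL. The gene that fell was Myh14, a nonmuscle myosin of epithelia, with a log2 fold change of -0.29 (SE 0.10, adjusted p = 0.03). These genes were named after their values were seen, and whether reads of Spib reach the neighbouring gene models was not tested.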
